A study of Homo sapiens with 8 samples.

Results

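NODAL and activin signaling was examined here through 10 genes of 60675 in the files: the ligand genes NODAL and GDF3, the co-receptor gene TDGF1, the receptor genes ACVR1B and ACVR2B, the transducer gene SMAD3, its DNA-binding partner gene FOXH1, and the inhibitor genes LEFTY1, LEFTY2 and FST. They were chosen by symbol, as known parts of the pathway, with earlier results of these data known. All 10 were measured and passed the filter on low counts. Messenger RNA was sequenced from H9 (WA09) human embryonic stem cells (hESCs), a line derived from a blastocyst, grown without feeder cells on Matrigel in mTeSR1 and passaged with dispase. The list of culture reagents in the study names iPSC-brew and does not name mTeSR1. The 4 groups, called P1, P2, P3 and P4 hESCs, are the same line at passages in the 40s, 100s, 200s and 300s, with 2 samples each, and the study describes P3 and P4 hESCs as carrying a copy number gain at 20q11.21. All groups share genotype of origin, medium and matrix. P1 and P2 hESCs are called early and P3 and P4 hESCs late here. Each group is 1 range of passages of 1 line, so passage number, the copy number gain and any other change acquired in culture cannot be told apart. The sources do not say whether the 2 samples of a group came from separate cultures, so the spread between them may be technical. The p-values of single groups measure this spread. Those of late against early also count the differences between P1 and P2 and between P3 and P4 as error. They still treat the 2 samples of a group as independent, although each side holds only 2 groups. As a measure of the spread between groups they may therefore be too small.

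NODAL is a secreted ligand of the TGF-beta superfamily. With the co-receptor CRIPTO, the product of TDGF1, it binds activin receptors of type I (such as ACVR1B, also called ALK4) and type II (such as ACVR2B), which phosphorylate SMAD2 and SMAD3. These enter the nucleus with SMAD4 and, through partners such as FOXH1, switch on genes that include NODAL itself and its secreted inhibitors LEFTY1 and LEFTY2, so the pathway carries both a positive and a negative loop. Activins use the same receptors without CRIPTO and are bound by follistatin, the product of FST. In hESCs this signal is known to sustain NANOG and the undifferentiated state, and at higher strength it takes part in the formation of mesendoderm.

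The total expected count was 26874899 to 38095600 per sample. The 8 hESC markers examined, POU5F1 and NANOG among them, were at 25.2 TPM (a level scaled to transcript length and to the library total) or above in every sample, with a summed level of 2277 to 3746 TPM in P1 and P2 hESCs and 2658 to 4171 TPM in P3 and P4 hESCs. The share of counts from mitochondrial genes set samples of a line apart: it was 9.84% and 18.5% in the P1 replicates, 6.55% and 6.72% in P2, 18.4% and 7.53% in P3, and 17.2% and 5.89% in P4. P1 replicate 2, P3 replicate 1 and P4 replicate 1 therefore stood apart from the other samples, and results that move with this share are given with it below.

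The NODAL gene lies on the minus strand of chromosome 10 (GRCh38, chr10:70432315-70447951, GENCODE v29). The 250 bases before its RefSeq start site (GRCh38.p14, chr10:70441682-70441931, minus strand) are shown because NODAL was among the members with the largest differences between the lines. The capitals mark its 1 copy of CAGAC, letters that SMAD proteins are known to bind. These 250 bases lie inside the GENCODE span of the gene, which begins further upstream. Which GENCODE transcript starts at the RefSeq site was not examined.

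NODAL upstream: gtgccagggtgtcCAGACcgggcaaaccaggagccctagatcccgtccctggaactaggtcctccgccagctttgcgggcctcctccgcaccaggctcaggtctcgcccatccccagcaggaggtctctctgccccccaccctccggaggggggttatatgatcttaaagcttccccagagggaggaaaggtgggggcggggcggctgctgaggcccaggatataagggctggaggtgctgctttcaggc

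CAGAC or its reverse complement GTCTG is common: 13345 of 35116 upstream windows of 250 bases in the RefSeq promoter table held it. The FOXH1 letters AATCCACA and AATACACA, on either strand, were found in 0.709% and 0.666% of the windows, and in none of the 11 windows of the 6 members the table holds (ACVR1B, ACVR2B, FST, GDF3, NODAL and SMAD3).

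LEFTY1 (chr1:225886282-225911382) and LEFTY2 (chr1:225936598-225941489) are neighbours on the minus strand of chromosome 1 (GRCh38, GENCODE v29), with 25215 bases between them. Their coding sequences, 1098 bases each without the stop codon, were identical at 1067 bases and differed at 31, an identity of 97.2%. Of all words of 50 bases in the LEFTY1 transcript, 31.3% also occur in LEFTY2, and 22.0% of those of LEFTY2 occur in LEFTY1. RSEM shares out reads that fit both genes by estimation, so the division of counts between LEFTY1 and LEFTY2 is uncertain. LEFTY1 also shares exon sequence with AL117348.2 and LEFTY2 with AL117348.1, both on the same strand.

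NODAL, LEFTY1, LEFTY2 and SMAD3 were higher in P3 and P4 hESCs than in P1 and P2 hESCs, and the other 6 members did not pass the test. The 4 genes were 4 of 10 members, all in 1 direction, where 7.54% of the 19499 genes tested passed in either direction and 3.5% as higher (edgeR's quasi-likelihood test, Benjamini-Hochberg adjusted p under 0.05). The study's stricter rule, an adjusted p under 0.01 and an absolute log2 fold change above 1, was met by NODAL, LEFTY1 and LEFTY2, and by 2.2% of all genes. The median log2 fold change was 0.50 over the members and 0.0059 over all genes tested. Since the members were chosen with earlier results known, these shares and medians describe the list and do not test it. In CPM (counts scaled to the library total, with TMM factors), all P3 and P4 samples lay above all P1 and P2 samples for 4 members and below them for ACVR1B, against 8.38% of all genes above and 9.19% below. In a bulk sample, more cells that express a gene and more RNA per cell cannot be told apart.

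**Figure D1:**
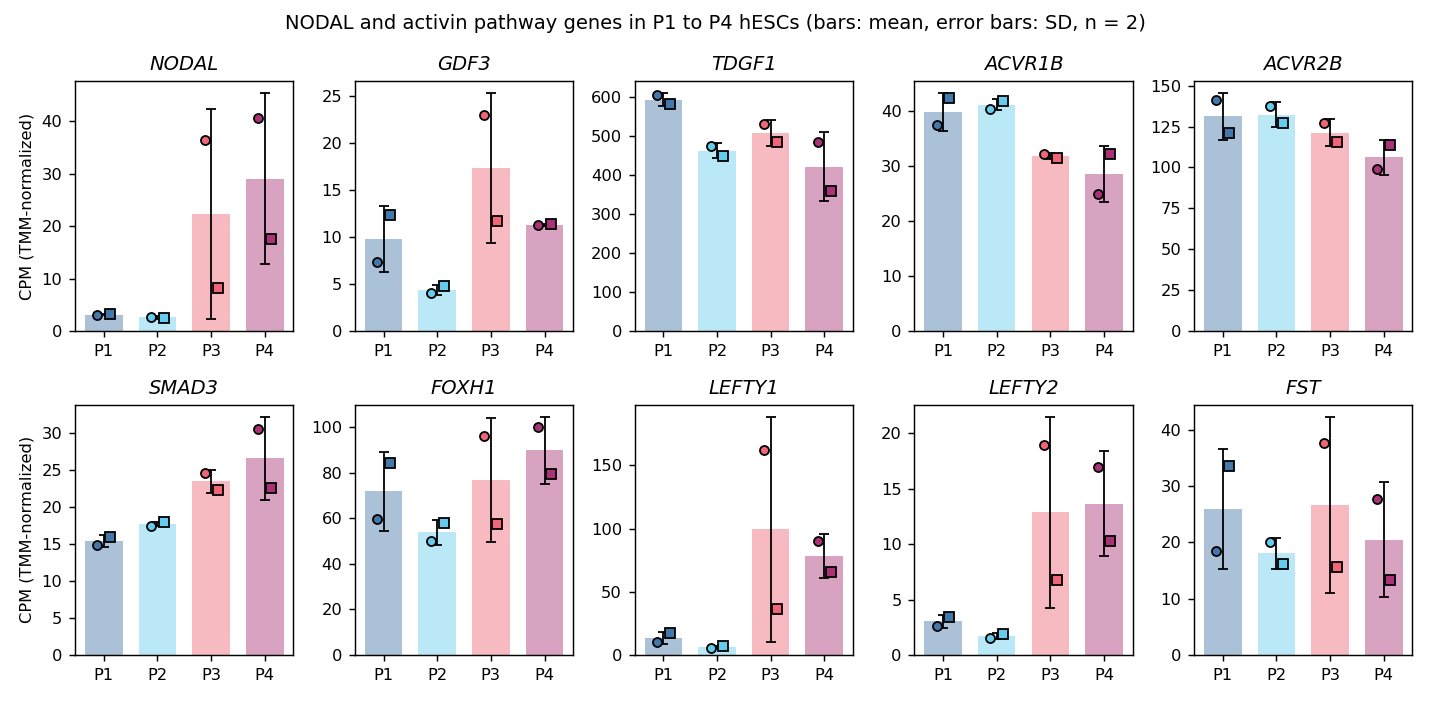
CPM of the 10 genes in P1, P2, P3 and P4 hESCs on linear axes from 0. Bars are the mean and error bars the SD of 2 samples, circles are replicate 1 and squares replicate 2. NODAL, LEFTY1, LEFTY2 and SMAD3 were higher in every P3 and P4 sample than in any P1 or P2 sample, and in P3 the 2 samples of NODAL, at 36.5 and 8.14 CPM, were far apart.

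NODAL, the ligand itself, was at 3.07 and 3.21 CPM in P1, 2.80 and 2.47 in P2, 36.5 and 8.14 in P3, and 40.6 and 17.6 in P4 hESCs. The 4 early-passage samples were close together, and the 4 late-passage samples were all higher but differed widely among themselves. The log2 fold change between P3 and P4 and P1 and P2 hESCs was 3.15 (SE 0.43, edgeR adjusted p = 0.0015), or 8.89-fold. Behind these values stood expected counts of 87.8 to 115 in P1 and P2 samples and of 292 to 1183 in P3 and P4 samples. The average transcript length that RSEM gave NODAL placed the shorter of its 2 GENCODE transcripts (1066 against 1665 bases) at 24.6% of NODAL transcripts in P2 replicate 2 and 27.4% in P3 replicate 2, and at 1.10% or less in the other 6 samples. The share of the shorter transcript was thus not ordered by line. NODAL shares exon sequence with AC022532.1 on the other strand, and whether RSEM counted by strand is not given in the sources used here.

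GDF3, a NODAL-related ligand that also uses CRIPTO, was at 7.33 and 12.3 CPM in P1, 4.04 and 4.79 in P2, 23.0 and 11.7 in P3, and 11.3 and 11.4 in P4 hESCs. The groups overlapped, since P1 replicate 2 was above 3 of the 4 late-passage samples. The log2 fold change of 1.01 (SE 0.36) did not pass (edgeR adjusted p = 0.11). It passed under 5 of 17 alternatives: without P1 replicate 2 (1.42, adjusted p = 0.041), in DESeq2 (1.02, adjusted p = 0.038), without the filter on low counts (1.04, adjusted p = 0.034), with the mitochondrial share as a covariate (0.95, adjusted p = 0.046) and with 4 groups in the model (1.09, adjusted p = 0.01).

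LEFTY1, an inhibitor that binds NODAL and its co-receptor, was at 10.03 and 17.1 CPM in P1, 5.48 and 7.004 in P2, 162.5 and 36.4 in P3, and 90.4 and 65.9 in P4 hESCs. LEFTY2, the neighbouring paralog with the same action, was at 2.64 and 3.43 CPM in P1, 1.49 and 1.88 in P2, 19.0 and 6.78 in P3, and 17.0 and 10.3 in P4 hESCs. For both genes no early-passage sample reached the lowest late-passage sample. The log2 fold change between the late and early lines was 3.17 for LEFTY1 (SE 0.47, edgeR adjusted p = 0.0025, 8.99-fold). It was 2.49 for LEFTY2 (SE 0.37, edgeR adjusted p = 0.0025, 5.64-fold). The summed CPM of both genes, which does not depend on how reads were divided between the pair, was 6.96 to 20.5 in P1 and P2 samples and 43.2 to 182 in P3 and P4 samples, again without overlap.

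TPM values, which divide by transcript length, allow the levels of these genes to be set against each other. LEFTY1 was 4.91 to 6.47 times the TPM of LEFTY2 in P1 and P2 samples and 6.998 to 11.3 times in P3 and P4 samples, and this ratio does depend on the division of shared reads. The summed TPM of LEFTY1 and LEFTY2, which depends on that division in part because the 2 lengths differ, was 2.41 to 6.34 times that of NODAL in P1 and P2 samples and 2.61 to 4.97 times in P3 and P4 samples, so these ranges overlapped. The TPM of TDGF1 was 214 to 242 times that of NODAL in P1 and P2 samples and 14.2 to 64.7 times in P3 and P4 samples.

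FST, which encodes the activin-binding protein follistatin, was at 18.4 and 33.5 CPM in P1, 20.01 and 16.1 in P2, 37.7 and 15.5 in P3, and 27.7 and 13.2 in P4 hESCs. The highest values were those of the 3 samples with a high mitochondrial share, in early and late lines alike. The log2 fold change between late and early lines was 0.10 (SE 0.33, edgeR adjusted p = 0.88), and its sign turned with the mitochondrial share as a covariate (-0.15).

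TDGF1 had the highest TPM of the 10 members in every sample, at 385 to 635 TPM, and was at 605 and 581 CPM in P1, 476 and 450 in P2, 531 and 485 in P3, and 483 and 359 CPM in P4 hESCs. The values of early and late lines overlapped, and the log2 fold change was -0.18 (SE 0.16, edgeR adjusted p = 0.51). TDGF1 shares sequence with its processed copy TDGF1P3: 29.7% of the words of 50 bases in the TDGF1 transcript occur in that copy. The copy had expected counts of 514 to 1133 per sample, against 10679 to 21128 for TDGF1. TDGF1 also overlaps AC104304.1 on the same strand and LRRC2 on the other.

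ACVR1B, the type I receptor ALK4, was at 37.4 and 42.2 CPM in P1, 40.4 and 41.8 in P2, 32.2 and 31.4 in P3, and 24.9 and 32.1 in P4 hESCs. Every late-passage sample was below every early-passage sample, but the log2 fold change of -0.42 (SE 0.13) did not pass in edgeR (adjusted p = 0.077); it passed in DESeq2 (adjusted p = 0.027). ACVR2B, a type II receptor, was at 141 and 121 CPM in P1, 138 and 127 in P2, 127 and 116 in P3, and 98.8 and 114 in P4 hESCs. These values overlapped (log2 fold change -0.21, SE 0.13, edgeR adjusted p = 0.33). Per length both receptors were at similar levels, with a mean of 9.98 TPM for ACVR1B and 12.9 TPM for ACVR2B over the 8 samples.

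SMAD3, a transducer that the receptors phosphorylate, was at 14.8 and 16.0 CPM in P1, 17.5 and 17.9 in P2, 24.6 and 22.3 in P3, and 30.6 and 22.6 in P4 hESCs. Late-passage samples did not overlap with early ones in CPM, and the log2 fold change of 0.60 (SE 0.15, edgeR adjusted p = 0.039) was a 1.51-fold difference. In TPM the groups did overlap, at 4.67 to 7.47 in P1 and P2 samples and 5.95 to 10.4 in P3 and P4 samples. The call was lost in 6 of the 8 fits that left out 1 sample: without P1 replicate 1 (0.54), P1 replicate 2 (0.58), P2 replicate 1 (0.62), P2 replicate 2 (0.64), P3 replicate 1 (0.61) or P4 replicate 1 (0.49), with adjusted p-values up to 0.13. SMAD3 overlaps AC087482.1 on the other strand.

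FOXH1, the forkhead partner of SMAD2 and SMAD3, was at 59.5 and 84.2 CPM in P1, 49.9 and 57.8 in P2, 96.0 and 57.6 in P3, and 100.3 and 79.3 in P4 hESCs. Early and late samples overlapped, and the log2 fold change of 0.41 (SE 0.21) did not pass (edgeR adjusted p = 0.24). Its mean TPM was 43.8 in P1 and P2 samples and 53.7 in P3 and P4 samples. It overlaps KIFC2 on the other strand.

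The order of the members by mean TPM was not the same in early and late lines. In P1 and P2 hESCs it ran from TDGF1 (554) and FOXH1 (43.8) over FST (15.5), ACVR2B (14.5), ACVR1B (11.9), LEFTY1 (8.18), GDF3 (8.07) and SMAD3 (6.16) to NODAL (2.45) and LEFTY2 (1.495). TDGF1, FOXH1, NODAL and LEFTY2 did not overlap with their neighbours in this order, while from FST to SMAD3 each gene's range over the 4 samples overlapped that of the next. In P3 and P4 hESCs it ran from TDGF1 (433) over LEFTY1 (64.9), FOXH1 (53.7), NODAL (18.6), GDF3 (14.9), FST (14.2), ACVR2B (11.3), ACVR1B (8.06) and SMAD3 (7.96) to LEFTY2 (7.48). LEFTY1 and FOXH1 overlapped there, FOXH1 and NODAL did not, and from NODAL down each gene overlapped the next. NODAL thus had 2.45 TPM ± 0.14 in early and 18.6 TPM ± 9.004 in late lines, and LEFTY2 1.495 TPM ± 0.43 and 7.48 TPM ± 2.14 (SD, n = 4).

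The single lines showed where the difference lay. Between P2 and P1 hESCs no member passed in edgeR, where 0.00513% of all genes did. Only GDF3 had an unadjusted p under 0.05 (9.14% of all genes did), and DESeq2 called 0 members and 0.503% of all genes. LEFTY1 was lower in P2 (log2 fold change -1.12, SE 0.52, edgeR adjusted p = 0.55), as were GDF3 (-1.15, SE 0.34, adjusted p = 0.41) and LEFTY2 (-0.85, SE 0.45, adjusted p = 0.59), none past the threshold.

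In P3 against P1 hESCs 3 of 10 members passed, all higher, where 12.5% of all genes passed in either direction and 4.49% as higher. They were NODAL (log2 fold change 2.83, SE 0.58, edgeR adjusted p = 0.0091), LEFTY1 (2.88, SE 0.53, adjusted p = 0.0053) and LEFTY2 (2.08, SE 0.44, adjusted p = 0.011). SMAD3 had a log2 fold change of 0.61 (SE 0.22, edgeR adjusted p = 0.087). These calls depended on single samples. Without P1 replicate 1 no member passed (0 of 10; NODAL 2.81, adjusted p = 0.066), without P1 replicate 2 or without P3 replicate 1 only LEFTY1 did, and without P3 replicate 1 the log2 fold change of NODAL was 1.38, that of LEFTY1 1.43 and that of LEFTY2 1.16. GDF3 passed as well without P3 replicate 2 (1.23, adjusted p = 0.033).

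In P4 against P1 hESCs the same 3 of 10 members passed, all higher, where 5.94% of all genes passed and 2.54% as higher. The log2 fold change was 3.21 for NODAL (SE 0.58, edgeR adjusted p = 0.007), 2.53 for LEFTY1 (SE 0.52, adjusted p = 0.014) and 2.17 for LEFTY2 (SE 0.44, adjusted p = 0.013). SMAD3 lay just outside the threshold (0.79, SE 0.22, edgeR adjusted p = 0.054). Without P1 replicate 1 (NODAL 3.17) or P1 replicate 2 (NODAL 3.24) no member passed, and without P4 replicate 1 only NODAL did. Both comparisons share the P1 samples, and in both the shares describe a list chosen with earlier results known.

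Between P4 and P3 hESCs no member passed in edgeR, where 3.31% of all genes did. No member had an unadjusted p under 0.05 (19.2% of all genes did), and DESeq2 called 0 members and 7.29% of all genes. The log2 fold change was 0.38 for NODAL (SE 0.52), -0.35 for LEFTY1 (SE 0.49) and 0.09 for LEFTY2 (SE 0.41). In the order of the lines by mean CPM, P2 was lowest for NODAL, LEFTY1, LEFTY2 and GDF3, then P1, and P3 and P4 were above both. For none of the 10 members did P2 differ from P1, or P4 from P3, past the threshold.

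**Figure D2:**
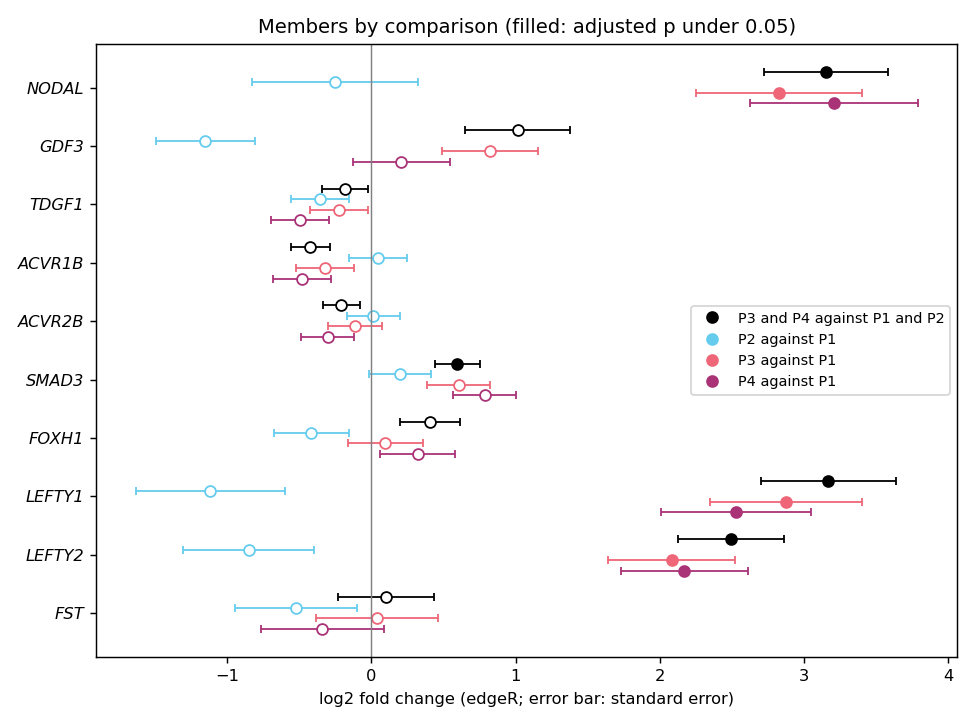
Log2 fold change of each member in 4 comparisons of hESC lines, with the standard error as error bar. Filled points passed an edgeR adjusted p under 0.05 and open points did not. NODAL, LEFTY1 and LEFTY2 are filled in all comparisons but P2 against P1, and SMAD3 only in P3 and P4 against P1 and P2.

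The level of several members also moved with the mitochondrial share within a line. In P1, P3 and P4 hESCs, where the share differed between the 2 samples by more than 8 percentage points, 6 of 10 members (NODAL, LEFTY1, LEFTY2, FOXH1, FST and SMAD3) had the higher CPM in the sample with the higher share in all 3 lines, against 13.9% of all genes. NODAL was 1.05 times as high in that sample in P1, 4.48 times in P3 and 2.31 times in P4. LEFTY1 was 1.70, 4.47 and 1.37 times as high in the same lines, and FST 1.82, 2.43 and 2.10 times. In P2 hESCs, whose samples differed by 0.172 percentage points, NODAL was 0.881 times as high in the sample with the higher share.

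The comparison was also made with 1 sample per line. Among the samples with the lower share of each line (5.89% to 9.84%), the log2 fold change between late and early lines was 2.12 for NODAL (edgeR adjusted p = 0.19), 2.72 for LEFTY1 (adjusted p = 0.12) and 2.05 for LEFTY2 (adjusted p = 0.20), so that none of the 10 members passed with 2 samples against 2; 16 of all genes did. The samples with the higher share of each line were not matched, since that of P2 had 6.72% and the others 17.2% to 18.5%. Among them the log2 fold change was 3.76 for NODAL (adjusted p = 0.002), 3.39 for LEFTY1 (adjusted p = 0.024) and 2.76 for LEFTY2 (adjusted p = 0.024). With the share as a covariate over all 8 samples it was 2.80 for NODAL (adjusted p = 0.0013), 2.94 for LEFTY1 (adjusted p = 2e-04) and 2.30 for LEFTY2 (adjusted p = 0.00044). The direction was the same each time, and the part of the share in the size of the difference was not tested further.

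**Figure D3:**
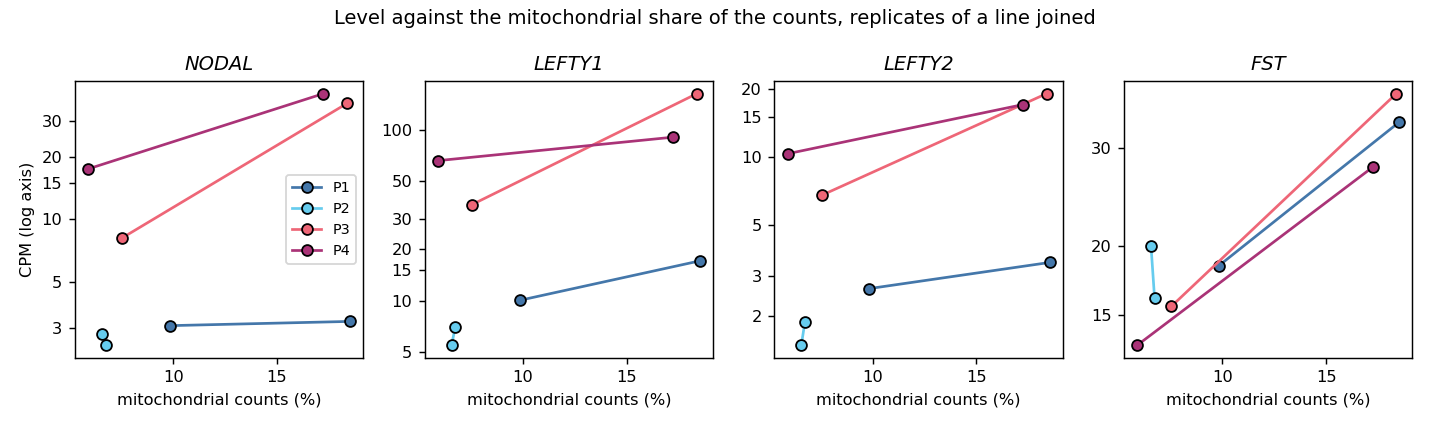
CPM on a log axis against the percent of counts from mitochondrial genes for NODAL, LEFTY1, LEFTY2 and FST, with the 2 samples of each line joined. In P1, P3 and P4 the sample with the higher share had the higher CPM for all 4 genes. For NODAL, LEFTY1 and LEFTY2 every P3 and P4 sample lay above every P1 and P2 sample. P1 replicate 2 (18.5%) was the only early sample with a high share.

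The pathway around the members was read from a list of 52 other genes, of which 48 passed the filter on low counts (MSTN, DAND5, GSC and SOX17 did not). Between late and early lines 1 of these 48 passed, against 7.54% of all genes, and their median log2 fold change was 0.00072. It was INHBA, which encodes the subunit of activin A, at 7.22 and 7.18 CPM in P1, 5.02 and 3.95 in P2, 2.72 and 2.43 in P3, and 1.61 and 0.471 in P4 hESCs. INHBA was lower in every late-passage sample than in any early-passage sample, by a log2 fold change of -1.69 (SE 0.44, edgeR adjusted p = 0.04). Its call was lost in 6 of the 8 fits without 1 sample, all but those without P3 replicate 1 or P4 replicate 2, over which its log2 fold change ran from -1.94 to -1.37.

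By role, 10 ligand genes were tested, with 1 lower and a median log2 fold change of -0.57. Among them INHBB, of activin B, had -1.11 (SE 0.59, edgeR adjusted p = 0.26) and TGFB2 1.19 (SE 0.44, adjusted p = 0.12). None of the 6 other receptor and co-receptor genes passed (median -0.040), nor did SMAD2 (0.12, SE 0.14) or SMAD4 (0.11, SE 0.17). None of the 14 inhibitor genes passed (median 0.022). These include CER1, a secreted NODAL antagonist, at 1.29 (SE 0.46, adjusted p = 0.11), and SMAD7, the inhibitory SMAD, at 0.085 (SE 0.27). None of the 10 target genes passed (median -0.26), NANOG among them at 0.23 (SE 0.20, edgeR adjusted p = 0.50). By the unadjusted p under 0.05 there were 13 of the 48 genes, against 25.5% of all genes, and DESeq2 called 6, against 13.9% of all genes.

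**Figure D4:**
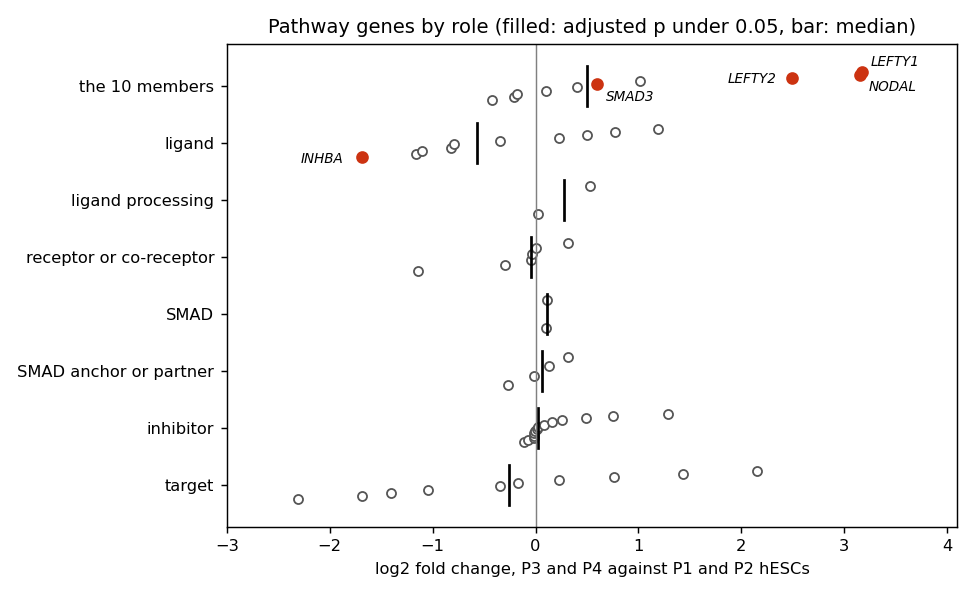
Log2 fold change between P3 and P4 and P1 and P2 hESCs of the 10 members and of 48 other pathway genes by role, each point a gene, with the median as a bar. Filled points passed an edgeR adjusted p under 0.05. NODAL, LEFTY1 and LEFTY2 stand to the right of all other ligand and inhibitor genes, and INHBA is the only filled point at the left.

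In single lines, INHBA was lower in P3 than in P1 hESCs (log2 fold change -1.48, SE 0.42, edgeR adjusted p = 0.039), a call lost in each of the 4 fits without 1 sample, and in P4 than in P1 hESCs (-2.79, SE 0.45, adjusted p = 0.0035), a call kept in all 4. EOMES and FOXA2, mesendoderm and endoderm transcription factor genes that NODAL signaling can induce, were at low levels: EOMES was at 1.00 and 0.756 CPM in P1, 2.87 and 2.05 in P2, 0.0948 and 0.0837 in P3, and 0.584 and 0.606 in P4 hESCs. It was lower in P3 than in P1 hESCs (log2 fold change -3.25, SE 0.55, edgeR adjusted p = 0.0031). FOXA2 was at 6.76 and 6.33 CPM in P3 hESCs and under 1 CPM in all other samples, with a log2 fold change of 2.76 against P1 (SE 0.44, edgeR adjusted p = 0.0024). Between P2 and P1 hESCs none of the 48 genes passed in edgeR (9 had an unadjusted p under 0.05, and DESeq2 called 1).

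The 4 mesendoderm markers summed to 1.44 to 3.34 TPM in P1 and P2 and 0.62 to 2.25 TPM in P3 and P4 samples. The 4 endoderm markers summed to 0.66 to 1.12 and 0.59 to 3.73 TPM, and the 4 neuroectoderm markers to 0.89 to 1.13 and 0.70 to 1.49 TPM. None of these passed between late and early lines. In CPM, TBXT (log2 fold change -1.69, edgeR adjusted p = 0.063) and EOMES (-2.31, adjusted p = 0.054) were lower in every late-passage sample than in any early-passage sample, as were 9.19% of all genes. MIXL1 overlapped, and GSC was not tested. The 4 trophoblast markers summed to 10.5 to 17.0 TPM in P1 and P2 and 4.65 to 11.8 TPM in P3 and P4 samples, most of it KRT7, with CGA at 0.04 TPM or less. The 4 fibroblast markers summed to 93.6 to 151 TPM in P1 and P2 and 52.7 to 65.4 TPM in P3 and P4 samples, nearly all of it COL1A1, with LUM at 0.06 and DCN at 0.18 TPM or less. Of these POSTN alone passed, as higher in late lines (log2 fold change 1.34, SE 0.35, edgeR adjusted p = 0.04), at 1.58 TPM or less. The part of such cells in the levels of the members was not tested.

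Likeness of profile over the 8 samples was measured as the root mean square difference between the log2 CPM values of 2 genes, each centred on its own mean, among 19498 genes. LEFTY2 (0.42) and LEFTY1 (0.48) were among the 3 genes nearest to NODAL, whose own SD was 1.69. The genes nearest to LEFTY1 were LEFTY2 (0.41), NODAL (0.48) and HTR5A-AS1 (0.60). Reads that fit both LEFTY1 and LEFTY2 were divided between them by estimation, so the profiles of this pair are not independent. Those nearest to TDGF1 were MTA3 (0.073), SNX24 (0.086) and BLOC1S6 (0.089), against an SD of 0.23 for TDGF1. LEFTY1, whose own SD was 1.81, was at place 19285 of 19498 by this measure. Profiles were not scaled to the same SD, so a gene that varies far more than TDGF1 is distant whatever its shape. The place of LEFTY1 therefore does not compare the shapes of the 2 profiles. All these profiles share the same 8 libraries, and those of genes with large differences between lines rest mostly on these differences.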

How the data were processed

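TruSeq stranded mRNA libraries were made from 2 samples of each hESC line. Per the labels and the submitters' processing notes, which also name FastQC, Trim Galore and the builds GRCh38 and hg38, the authors aligned with STAR 2.7.3a and deposited an expected count and a TPM value per gene and sample from RSEM 1.3.3. The annotation release and RSEM's strand setting are not given in the sources used here. Rounded expected counts went into edgeR 4.0.16 (R 4.3.3), with TMM factors, filterByExpr with the 4 lines as groups (19499 genes kept), and the quasi-likelihood test, whose p-values were adjusted by Benjamini-Hochberg over every gene kept. P3 and P4 against P1 and P2 hESCs used 2 groups of 4 samples; single lines used a model of 4 groups. A call was an adjusted p under 0.05. The SE is the log2 fold change divided by the square root of F. In simulated counts with the design of the former comparison (18983 genes), 54.5% of 2-fold and 93.9% of 4-fold changes were recovered. The simulated counts held no difference between P1 and P2 or between P3 and P4 hESCs. The comparison of the data counts such differences as error, so these shares may be too high for it. DESeq2 1.42.0 was an alternative.

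The members and gene lists were chosen with earlier results of these data known. Named were all members, the other pathway genes that passed (at most 12 between late and early lines and at most 4 in each comparison of single lines, largest first), and the 3 nearest profiles of NODAL, LEFTY1 and TDGF1, of which 1 gene is not reported here; TGFB2, INHBB, CER1, SMAD2, SMAD4, SMAD7 and NANOG were named for their roles after their values were seen. Symbols, positions and transcripts came from GENCODE v29, and upstream sequence from RefSeq (GRCh38.p14), which held 6 of the 10 members.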

Additional observations from a re-analysis of the deposited data

Results flagged for a closer look

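In 2 of 30 groups checked (15 genes, early and late lines), 1 sample stood apart from the other 3; about 1 group in 20 does so by chance, or 1.5 of 30. GDF3 was at 23.0 CPM in P3 replicate 1 and at 11.3 to 11.7 CPM in the other P3 and P4 samples, so that its gap to the nearest was 0.941 of the range. ACVR1B was at 24.9 CPM in P4 replicate 1 and at 31.4 to 32.2 CPM in the others, a gap of 0.907 of the range. Both samples are those with the higher mitochondrial share of their line (18.4% and 17.2%); its part in these values was not tested.

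For 3 other pathway genes the difference from P1 hESCs was not the same in P4 as in P3 hESCs, by the direct comparison of these lines. FOXA2 was lower in P4 than in P3 hESCs (log2 fold change -4.25, SE 0.50, edgeR adjusted p = 0.00078). EOMES was higher in P4 than in P3 hESCs (2.69, SE 0.57, adjusted p = 0.025), and so was GDF1, a ligand gene of the NODAL group (2.02, SE 0.45, adjusted p = 0.029). GDF1 was at 0.569 and 0.363 CPM in P3 and 1.92 and 1.85 CPM in P4 hESCs. Its expected counts were not whole numbers (17.64 and 12.51 in P3 hESCs), so reads that also fit elsewhere were shared out by estimation. Overlap of GDF1 with other genes was not examined. The calls of EOMES and GDF1 were each lost in 3 of the 4 fits without 1 sample, all but that without P4 replicate 1, and over the 4 fits their log2 fold changes ran from 2.60 to 2.77 and from 1.72 to 2.36.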

How the results depend on the processing

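NODAL, LEFTY1 and LEFTY2 stayed higher in P3 and P4 than in P1 and P2 hESCs, and past the threshold, under 16 of 17 alternatives each, the exception being the samples of lower mitochondrial share alone (0 members passed). This alternative, its counterpart with the higher share, and the covariate and sample subsets for single genes were chosen after seeing the data. Depth limits EOMES, FOXA2 and GDF1, at a few CPM or less.

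Leaving out 1 sample, 3 to 4 members passed between late and early lines, 0 to 4 in P3 against P1 and 0 to 3 in P4 against P1. In P2 against P1 and in P4 against P3 hESCs 0 passed each time. Of the other pathway genes 0 to 5 passed between late and early lines, where the number called over all genes moved as well. Without P1 replicate 1, 692 of all genes and 0 of the other pathway genes passed. Without P4 replicate 2, 2209 of all genes and 5 of the other pathway genes did. The main fit called 1470 of all genes and 1 of the other pathway genes.

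Without the filter on low counts 2 members passed in P2 against P1 (GDF3 and LEFTY1, lower), and 5, 4, 9, 7 and 6 other pathway genes passed in late against early lines, P2 against P1, P3 against P1, P4 against P1 and P4 against P3. DESeq2 called 6, 1, 5 and 4 of them in the first 4 of these comparisons. At the study's thresholds 1 member passed in P4 against P1, and 0 other pathway genes passed between late and early lines and 1 in P4 against P3. With 4 groups in the model 6 other pathway genes passed between late and early lines, and with the lower or the higher mitochondrial share alone 0 and 0. With only the 4 samples of the lines compared, 2 passed in P2 against P1, 2 in P4 against P1 and 1 in P4 against P3. The calls over all genes moved too. In late against early lines 1851 of all genes passed without the filter, 2709 in DESeq2 and 3093 with 4 groups in the model. The main fit called 1470. With the lower or the higher mitochondrial share alone, 16 and 107 of all genes passed. In P2 against P1 it was 479 without the filter, 98 in DESeq2 and 225 with only the 4 samples, against 1 in the main fit. The causes were not tested.

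The replicate numbers did not pair the samples: same-numbered deviations correlated at -0.090 to 0.14 over 6 pairs of lines. In the fit with a replicate block, SMAD3 (0.59, adjusted p = 0.055) and INHBA (-1.71, adjusted p = 0.053) missed the threshold between late and early lines, 0 other pathway genes passed there and 2 did in P4 against P1, and FST turned to -0.0049 (late against early) and -0.12 (P3 against P1).

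Signs turned only where no call was made. FST turned between late and early lines with the covariate (-0.15) and with the lower share alone (-0.42). Leaving out 1 sample, the log2 fold change ran from -0.22 to 0.37 for FST between late and early lines. In P2 against P1 it ran from -0.015 to 0.14 for ACVR1B and -0.096 to 0.15 for ACVR2B. In P3 against P1 it ran from -0.22 to 0.024 for ACVR2B, -0.31 to 0.42 for FOXH1 and -0.73 to 0.54 for FST. In P4 against P1 it ran from -0.13 to 0.63 for GDF3 and -0.97 to 0.15 for FST. In P4 against P3 it ran from -0.35 to 1.83 for NODAL, -1.06 to 1.10 for LEFTY1, -0.48 to 1.01 for LEFTY2, -0.36 to 0.0058 for ACVR1B, -0.058 to 0.38 for SMAD3, -0.10 to 0.64 for FOXH1 and -1.01 to 0.39 for FST.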
